A study of Saccharomyces cerevisiae with 14 samples.

Results

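TYS1 DAmP, a strain with a lowered level of an essential transcript, was compared with 3 strains that each lack a non-essential gene. The TYS1 DAmP libraries are 3 of the 14 RNA-seq libraries of the series and were chosen by their strain label, with no measured value. The comparison used 9 deletion libraries, 3 each from MSB3Δ, NIT3Δ and HSP26Δ, and the 2 WT libraries are given as levels only. Every strain was in the BY4741 haploid MATa background of S288C and was grown to log phase in YPD. TYS1 DAmP carries a drug resistance cassette, which the paper places directly behind the TYS1 reading frame and the primers just before its stop codon. In the deletion strains the reading frame was replaced by a resistance or HIS marker cassette. MSB3 encodes a GTPase-activating protein of vesicle traffic, NIT3 a nitrilase family member and HSP26 a small heat shock protein. The labels call the 3 libraries of a strain biological replicates, and whether a strain was 1 clone or several is not given in the sources used here. Since every strain but WT is a mutant, a gene that all 4 mutants share does not show in this comparison. The table holds FPKM values, fragment counts scaled for transcript length and library size, for 5886 genes. A gene was tested if its 14 values averaged 1 FPKM or more, which held for 5727 genes. The 3 deleted genes were left out of the counts, leaving 5724.

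TYS1 encodes the cytosolic tyrosyl-tRNA synthetase, the enzyme that joins tyrosine to its tRNA, and yeast cannot grow without it. In a DAmP allele (decreased abundance by mRNA perturbation) a marker cassette separates the reading frame from its natural 3′ end, and the transcript becomes unstable. Part of the results below concerns ergosterol, the main sterol of the yeast plasma membrane, whose late synthesis steps need oxygen and heme. The transcription factor Upc2 raises sterol genes when sterol is low, and the same factor acts on cell wall mannoprotein genes of the TIR and DAN families that are known from cells grown without oxygen.

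The allele is shown first because it defines the strain. TYS1 (YGR185C) lies on the minus strand of chromosome VII at 866336 to 867520 in R64, as 1 reading frame of 1185 bases or 394 codons and a stop codon. Each primer used to make the allele begins with 50 bases of yeast sequence, and with these arms the cassette falls between the last sense codon and the stop codon, after base 1182 of the reading frame. The ends of the arms that meet at this point are printed on the coding strand, with the last sense codon and the stop codon in capitals.
Upstream arm, last 30 bases, chrVII:866339-866368, minus strand: attgccacgaaactagaggaaaccaaaTTG
Downstream arm, first 30 bases, chrVII:866309-866338, minus strand: TAAgcatagcttaatccgttttcacgattc
The arms leave no base of the genome between them.

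The targeted transcript was low in every TYS1 DAmP library. TYS1 was at 66.2, 71.4 and 82.5 FPKM in TYS1 DAmP, against a lowest value of 412.9, a median of 513.5 and a highest value of 561.0 FPKM in the 9 deletion libraries. The groups did not overlap, and the TYS1 DAmP libraries lay close together while the deletion libraries spread over a wider absolute range. The TYS1 DAmP mean of 73.4 ± 8.34 FPKM (SD, n = 3) was 14.7% of the mean of the 3 deletion strains, which were at 514.0 ± 20.5 in MSB3Δ, 483.3 ± 74.3 in NIT3Δ and 503.1 ± 44.6 FPKM in HSP26Δ (SD, n = 3 each). WT had 512.3 and 562.6 FPKM. The paper describes a smaller decrease of TYS1 in its DAmP strain, which it checked by RT-qPCR, another measure than FPKM. On the scale of log2(FPKM + 1), used for every difference here and understating changes of low genes, TYS1 differed by −2.75 ± 0.15 (SE), with an adjusted p of 8.49e-07 by limma with Benjamini-Hochberg adjustment over all genes tested. A two-sided exact permutation test of 3 against 9 libraries gave p = 0.00909, the smallest value that the 220 arrangements can give. That test takes libraries of different strains as exchangeable, and the allele was made to lower TYS1, so no conclusion is drawn from it. The limma call held without each of the 12 libraries in turn, with an adjusted p of at most 3.75e-05.

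**Figure D1:**
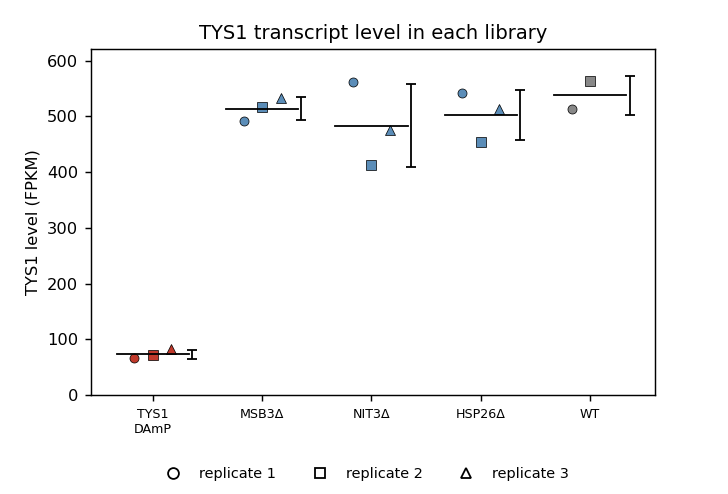
TYS1 level in FPKM (vertical axis from 0) in each library of TYS1 DAmP, the 3 deletion strains and WT; points are libraries, horizontal lines strain means and the bars beside them 1 SD. The 3 TYS1 DAmP libraries sit between 66.2 and 82.5 FPKM and the 9 deletion libraries between 412.9 and 561.0 FPKM.

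None of the 4 genes beside TYS1 passed the test. UBR1, which encodes the ubiquitin ligase of the N-end rule, is read in the same direction as TYS1 and starts, by its annotation, 585 bases beyond the insertion point. It was at 18.4, 15.1 and 13.5 FPKM in TYS1 DAmP, against 15.6 to 26.7 with a median of 18.3 FPKM in the deletion libraries, so that the groups overlapped. Its difference of −0.28 ± 0.18 (SE) had an adjusted p of 0.959. QCR9 (a subunit of the cytochrome bc1 complex) on the same side, and TFG1 (a subunit of transcription factor TFIIF) and HGH1 on the other, differed by −0.68, −0.09 and 0.10, with adjusted p-values between 0.959 and 0.962. The signs of TFG1 and HGH1 turned in some alternatives.

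Some libraries stood apart from the others of their strain. TYS1 DAmP replicate 1 had 395 genes more than 2-fold from the mean of the other 2 TYS1 DAmP libraries, against 109 and 132 genes for replicates 2 and 3. Among the deletion libraries this number ran from 34 to 1424, with the highest in NIT3Δ replicate 2. The ribosomal protein share of all FPKM was 40.0%, 41.8% and 46.0% in TYS1 DAmP, against 18.05% in NIT3Δ replicate 2, 30.1% in MSB3Δ replicate 1 and 38.6% to 45.5% in the other 7 deletion libraries. Depth was estimated at 22600000 to 25500000 fragments per library, from the spacing of small FPKM values in 79 short genes. The MATa marker STE2 was at 171 to 217 FPKM in TYS1 DAmP and 90.5 to 668 in the deletion libraries, while the MATα factor gene MF(ALPHA)1 was at most 0.80 FPKM in TYS1 DAmP and 2.13 in the deletion libraries. BAR1, also a MATa marker, was at 7.06 to 15.5 FPKM in TYS1 DAmP and 3.61 to 175.5 in the deletion libraries. STE3, a MATα marker, was higher than MF(ALPHA)1, at 6.56 to 9.86 FPKM in TYS1 DAmP and 4.99 to 19.5 in the deletion libraries. MET17, deleted in this background, was at or below 0.03 FPKM in all 14 libraries. HIS3, also mutated in this background, was not low, at 177 to 231 FPKM in TYS1 DAmP and 121.6 to 193 in the deletion libraries. MSB3 and NIT3 were each below 0.3 FPKM in their own deletion strain and at 21.1 to 33.9 and 236.2 to 266.8 FPKM in TYS1 DAmP, and HSP26 was at 0.08 to 0.15 FPKM in HSP26Δ against 98.4 to 184 FPKM in TYS1 DAmP.

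TYS1 DAmP differed from the mean of the 3 deletion strains in few genes after adjustment, and most of these were sterol or mannoprotein genes. At an adjusted p under 0.05, 7 genes were higher (0.122% of the genes tested) and 1 gene, TYS1 itself, was lower (0.0175%). The 7 higher genes were ERG3, ERG25, CYB5, ATF2, HES1, TIR1 and TIR3. The deleted genes were left out of these counts but kept in the adjustment, and the call of HES1 may rest on them, as described below. In the same limma fit, all 7 also passed an adjusted p under 0.05 against NIT3Δ alone (at most 0.0346). None passed against MSB3Δ alone (at least 0.0949), and only CYB5 did against HSP26Δ alone (0.0213). A looser criterion, called the thresholds from here on, asked for p under 0.05 before adjustment and more than 1.5-fold or less than 0.7-fold. By it 52 genes were higher (0.908%) and 47 lower (0.821%). All 3 TYS1 DAmP libraries lay above all 9 deletion libraries in 37 genes (0.646%) and below them in 33 genes (0.577%). The median difference of all genes was −0.11, and with median-ratio scaling of the libraries, which moved it to 0.00, the counts at the thresholds were 66 higher and 26 lower. The number of genes at an adjusted p under 0.05 was 2 higher without TYS1 DAmP replicate 1, without TYS1 DAmP replicate 2 or without NIT3Δ replicate 3, 3 without TYS1 DAmP replicate 3, and 4 without MSB3Δ replicate 2, HSP26Δ replicate 2 or HSP26Δ replicate 3. At the thresholds 29 genes were higher without TYS1 DAmP replicate 1. The number lower there was 79 without TYS1 DAmP replicate 2, 83 without MSB3Δ replicate 3 or NIT3Δ replicate 1, and 29 without MSB3Δ replicate 1 or HSP26Δ replicate 3. Of genes without overlap, 56 were above and 40 below without TYS1 DAmP replicate 3. Those below were 286 without TYS1 DAmP replicate 1, 164 without TYS1 DAmP replicate 2 and 57 without HSP26Δ replicate 2. Each of these runs had 1 library fewer to lie apart, and the counts depended on which library was left out.

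The same contrast was made for each deletion strain against the mean of the other 3 strains. At an adjusted p under 0.05 it gave 1 gene for MSB3Δ (0.0175%), which was TYS1, low in TYS1 DAmP among the other 3, and 0 genes for NIT3Δ and HSP26Δ (0% each), while 292 genes for NIT3Δ and 337 for HSP26Δ had an unadjusted p under 0.05, against 149 for TYS1 DAmP and 103 for MSB3Δ by the same limma fit. These 4 contrasts share all 12 libraries, and the differences between their counts were not tested.

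Most genes of the late steps of ergosterol synthesis were higher in TYS1 DAmP. Of the 15 genes tested, 11 were higher and 1 lower at the thresholds, against 0.908% and 0.821% of all genes, and 2 of them (ERG3 and ERG25) passed at an adjusted p. The list's median difference was 0.88, against −0.11 for all genes tested, and 0.61 without TYS1 DAmP replicate 1. The summed level of the 15 genes was 11104, 8085 and 8229 FPKM in TYS1 DAmP, against 2971 to 5634 FPKM in the deletion libraries and 3599 and 3358 FPKM in WT. Within the deletion libraries the sum was highest in HSP26Δ, with 5538, 4250 and 5634 FPKM, and in MSB3Δ replicate 3, with 5166 FPKM, while the other 5 libraries lay between 2971 and 3405 FPKM. In bulk RNA, more transcript in each cell and a larger share of cells with a high level cannot be told apart.

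ERG11 encodes lanosterol demethylase, the cytochrome P450 enzyme that azole drugs inhibit. It was at 663, 410 and 435 FPKM in TYS1 DAmP, against 122 to 360 with a median of 156 FPKM in the deletion libraries. All 3 TYS1 DAmP values lay above every deletion library, by a narrow margin over HSP26Δ replicate 3. The difference of 1.38 ± 0.30 (SE) missed the adjusted threshold (adjusted p = 0.176, limma). ERG24, which encodes the next enzyme of the pathway, a sterol reductase, was at 184, 128 and 125 FPKM in TYS1 DAmP and 53.0 to 115.6 FPKM in the deletion libraries, likewise without overlap (difference 0.97, adjusted p = 0.159).

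ERG25 encodes the sterol methyl oxidase that acts after these steps. It was at 1472, 1243 and 1117 FPKM in TYS1 DAmP, against 261 to 779 with a median of 371 FPKM in the deletion libraries. The lowest TYS1 DAmP library was well above the highest deletion library, HSP26Δ replicate 3. Its difference was 1.57 ± 0.23 (SE, adjusted p = 0.0164), and against each strain alone it was 1.70 from MSB3Δ, 1.99 from NIT3Δ and 1.03 from HSP26Δ. ERG26, the decarboxylase that works with Erg25, was at 440, 286 and 261 FPKM against 174 to 259.6 FPKM, above all deletion libraries by a margin of little more than 1 FPKM, with a difference of 0.54, under the fold threshold. ERG28, which encodes a scaffold of this enzyme complex, was at 997, 558 and 546 FPKM in TYS1 DAmP and overlapped with HSP26Δ replicate 3 at 665 FPKM (difference 0.88, adjusted p = 0.959).

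ERG6, ERG2 and ERG3 encode the methyltransferase, the isomerase and the desaturase that follow. ERG6 was at 1134, 974 and 883 FPKM in TYS1 DAmP, against 391.6 to 763 with a median of 464 FPKM in the deletion libraries. ERG2 was at 2343, 1399 and 1866 FPKM in TYS1 DAmP, against 284 to 953 with a median of 629 FPKM in the deletion libraries. Neither gene overlapped between the groups, and the differences were 0.93 ± 0.18 for ERG6 and 1.53 ± 0.27 for ERG2 (SE), with adjusted p-values of 0.0972 and 0.0531. ERG3 was at 2397, 1828 and 1819 FPKM in TYS1 DAmP, against 164 to 991 with a median of 422 FPKM in the deletion libraries. Even its lowest TYS1 DAmP value was far above HSP26Δ replicate 1, the highest deletion library. ERG3 differed by 2.19 ± 0.35 (SE, adjusted p = 0.0266), and by 2.31, 2.89 and 1.37 from MSB3Δ, NIT3Δ and HSP26Δ alone.

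The last 2 steps went in opposite directions. ERG5, a desaturase of the P450 family, was at 170, 101 and 121 FPKM in TYS1 DAmP and at 22.6 to 104.9 FPKM in the deletion libraries, with an overlap in 1 TYS1 DAmP library (difference 1.26, adjusted p = 0.70). ERG4, the reductase that completes ergosterol, was at 128, 88.4 and 78.0 FPKM in TYS1 DAmP, against 109 to 242 with a median of 150 FPKM in the deletion libraries. It was the single member of the list that was lower at the thresholds, by −0.70 ± 0.23 (SE, unadjusted p = 0.0109, adjusted p = 0.959). Replicate 1 of TYS1 DAmP lay within the range of the deletion libraries for ERG4. ERG7, the lanosterol synthase, and ERG27 differed by 0.15 and 0.28 and did not pass the thresholds.

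The steps before squalene did not share this pattern. None of the 10 genes tested of mevalonate and early sterol synthesis passed the thresholds in either direction, and their median difference was 0.07. ERG9, which encodes squalene synthase, had the largest difference of them, 0.48 ± 0.24 (SE), with 555 FPKM in TYS1 DAmP replicate 1 but 311 and 303 FPKM in the other TYS1 DAmP libraries, against 201 to 352 FPKM in the deletion libraries. ERG8, phosphomevalonate kinase, was above all deletion libraries with a difference of 0.23.

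CYB5 had the smallest adjusted p of the genes that were higher. It encodes cytochrome b5, an electron donor for sterol and lipid oxidation. It was at 364, 342 and 274 FPKM in TYS1 DAmP, against 85.3 to 150.1 with a median of 112 FPKM in the deletion libraries and 153 and 138 FPKM in WT. The 3 TYS1 DAmP libraries were similar, and among the deletion strains MSB3Δ (140 to 142 FPKM) was higher than NIT3Δ (85.3 to 112 FPKM), with HSP26Δ at 97.7 to 150.1 FPKM. The difference was 1.49 ± 0.17 (SE, adjusted p = 0.00271), with 1.19, 1.78 and 1.49 from MSB3Δ, NIT3Δ and HSP26Δ. It held without each of the 12 libraries in turn (adjusted p at most 0.0359).

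Among 16 genes tested of sterol regulation, uptake and esterification, 6 were higher and 0 lower at the thresholds, against 0.908% and 0.821% of all genes, with a list median of 0.12. UPC2, the sterol-responsive regulator itself, was at 129, 73.7 and 46.1 FPKM in TYS1 DAmP, against 17.7 to 46.2 with a median of 24.98 FPKM in the deletion libraries. Its lowest TYS1 DAmP library met the level of HSP26Δ replicate 1, and the difference of 1.54 ± 0.27 (SE) had an adjusted p of 0.0514. ECM22, the paralog of UPC2, did not pass the thresholds.

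ATF2 encodes an acetyltransferase that acetylates sterols and alcohols. It was at 134, 93.5 and 101.6 FPKM in TYS1 DAmP, against 12.4 to 59.6 with a median of 21.3 FPKM in the deletion libraries. Its groups were clearly apart, with a difference of 2.11 ± 0.31 (SE, adjusted p = 0.0164). HES1, an oxysterol-binding protein homolog, was at 287, 58.1 and 66.3 FPKM in TYS1 DAmP, against 2.09 to 36.99 with a median of 5.33 FPKM in the deletion libraries. It was far higher in TYS1 DAmP replicate 1 than in replicates 2 and 3, which still lay above all deletion libraries. The difference was 3.49 ± 0.60 (SE, adjusted p = 0.0434) and 2.76 without TYS1 DAmP replicate 1 (adjusted p = 0.274). HES1 had the highest adjusted p of the genes called. The adjustment kept the deleted genes NIT3 and MSB3, which ranked before HES1 (limma, adjusted p = 7.53e-07 and 0.00356). Each deleted gene that passes lowers the adjusted p of genes ranked after it. An adjustment without the deleted genes was not run, so the call of HES1 may rest on them.

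Of the 12 runs that leave out 1 library each, the call of ATF2 held in 8 and that of ERG25 in 8, that of ERG3 in 5 and that of HES1 in 3. Without TYS1 DAmP replicate 1 the adjusted p was 0.214 for ERG25 and ATF2 and 0.265 for ERG3, and leaving out TYS1 DAmP replicate 2, TYS1 DAmP replicate 3 or NIT3Δ replicate 3 also ended these calls. The calls of ERG3 and HES1 were also lost without MSB3Δ replicate 2, HSP26Δ replicate 2 or HSP26Δ replicate 3, and that of HES1 also without NIT3Δ replicate 1 or 2. Without MSB3Δ replicate 1 and NIT3Δ replicate 2 together, CYB5, ATF2, ERG3 and ERG25 passed (adjusted p between 0.00271 and 0.0272) and TIR1, TIR3 and HES1 did not (0.0784, 0.086 and 0.194). The differences kept their sign throughout, between 1.37 and 1.85 for ERG25, 1.84 and 2.60 for ERG3, 1.76 and 2.50 for ATF2 and 2.76 and 4.08 for HES1 over all 25 alternatives.

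**Figure D2:**
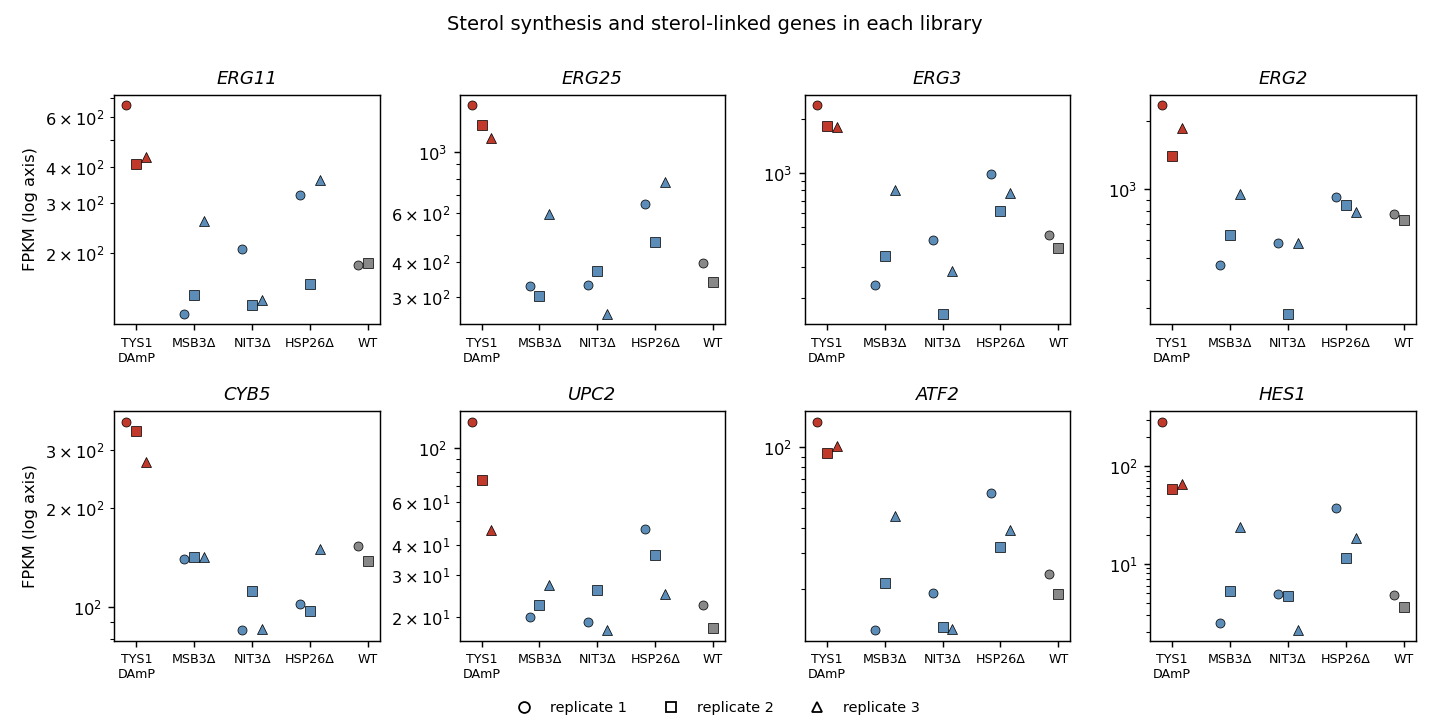
Levels of 8 sterol-related genes in FPKM (log axis) in each library; red points are TYS1 DAmP, blue the deletion strains and grey WT, with the replicate given by the symbol. In ERG11, ERG25, ERG3, ERG2, CYB5, ATF2 and HES1 the 3 TYS1 DAmP libraries lie above all 9 deletion libraries, and in UPC2 the lowest TYS1 DAmP value (46.1 FPKM) meets that of HSP26Δ replicate 1 (46.2 FPKM).

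Upc2 binds the sterol response element, whose core letters are TCGTATA. These 7 letters were searched on both strands in the 500 bases before each start codon of R64, and 402 of 5717 genes (7.03%) held them. They were present before 4 of the 7 genes higher at an adjusted p, before 16 of the 52 genes higher at the thresholds (30.8%) and before 4 of the 47 genes lower (8.51%). The 52 include 11 of the seripauperin genes listed below, a family of nearly identical members, so they are not all independent. Among genes at the thresholds without overlap, 10 of 23 higher (43.5%) and 2 of 7 lower genes (28.6%) held the letters. Of the 15 late ergosterol genes 6 held them (40.0%), and of the 7 mannoprotein genes 4 (57.1%). Of the 10 genes of mevalonate and early sterol synthesis, none of which passed the thresholds, 2 held them (20.0%). ATF2, HES1 and TIR1 had no such match in this window. Sites of 8 genes described here are printed as examples from the sterol and mannoprotein genes, chosen with their values known, on the strand that reads the element, with the element in capitals and 9 bases on each side.
ERG3, first site, chrXII:253526-253550, minus strand: ccatcggccTCGTATAcaccccggt
ERG3, second site, chrXII:253566-253590, plus strand: aattcaggcTCGTATAagtggcaca
ERG25, first site, chrVII:610072-610096, plus strand: tgcctccctTCGTATAcgggacaca
ERG25, second site, chrVII:610092-610116, plus strand: acacagagaTCGTATAcggtaaacg
ERG6, chrXIII:253407-253431, minus strand: ccccgatctTCGTATAtggtacctc
ERG2, chrXIII:667343-667367, plus strand: ccacggcccTCGTATAagccgcaag
CYB5, chrXIV:417562-417586, plus strand: atctcgatcTCGTATAgctttcttt
TIR3, chrIX:333297-333321, minus strand: aagtacgccTCGTATAaggccaatg
DAN1, chrX:709895-709919, plus strand: ttagaggccTCGTATAgatcttggc
PAU24, chrII:808786-808810, plus strand: gcgtgcgccTCGTATAcgggaccta
The sites end between 178 bases (ERG2) and 476 bases (ERG25, first site) before the start codon. The letters ATTGTTC, the core of the element read by the oxygen-dependent repressor Rox1, were found before 684 of the 5717 genes (11.96%) and before 16 of the 52 genes higher at the thresholds (30.8%), 3 of the 47 lower (6.38%). TGACTC, the core of the Gcn4 element, was found before 725 genes (12.7%) and before 7 of the 52 (13.5%) and 4 of the 47 (8.51%).

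Cell wall mannoproteins of the TIR and DAN families were the second group that was higher in TYS1 DAmP. Of the 7 genes tested of this list, 6 were higher at the thresholds, against 0.908% of all genes, and 6 had all TYS1 DAmP libraries above all deletion libraries, against 0.646%. Their median difference was 3.10, and 1.69 without TYS1 DAmP replicate 1. Summed over the list, including PAU7, which was below the minimum level and not tested, the level was 9792, 3264 and 2711 FPKM in TYS1 DAmP, against 207 to 1191 FPKM in the deletion libraries and 179 and 178 FPKM in WT. These genes belong to families of similar sequence, so that reads may have been divided between members.

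TIR1 encodes a cell wall mannoprotein induced by cold and lack of oxygen. It was at 4050, 2494 and 2003 FPKM in TYS1 DAmP, against 107 to 874 with a median of 234 FPKM in the deletion libraries. WT was below every mutant library, at 95.8 and 98.2 FPKM. The highest deletion libraries were HSP26Δ replicate 1 and MSB3Δ replicate 3, both well under the lowest TYS1 DAmP library. The difference was 3.21 ± 0.51 (SE, adjusted p = 0.0266). It was lost at the threshold in 7 of the 12 runs without 1 library, among them those without any of the TYS1 DAmP libraries (adjusted p = 0.265 without replicate 1), MSB3Δ replicate 2, NIT3Δ replicate 3, HSP26Δ replicate 2 or HSP26Δ replicate 3.

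TIR3, a mannoprotein of the same family that is needed for growth without oxygen, was at 2726, 601 and 551 FPKM in TYS1 DAmP. The deletion libraries were at 61.0 to 218 with a median of 90.2 FPKM, and WT at 52.9 and 49.3 FPKM. All TYS1 DAmP libraries were above all others, and replicate 1 was far above its own group. The difference was 3.28 ± 0.46 (SE, adjusted p = 0.0144), 2.53 without TYS1 DAmP replicate 1 (adjusted p = 0.0359), and passed without each of the 12 libraries.

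In the other members the differences were smaller without replicate 1 of TYS1 DAmP. DAN1 was at 1320, 44.7 and 40.9 FPKM in TYS1 DAmP, against 1.94 to 37.4 with a median of 10.2 FPKM in the deletion libraries. TIR4 was at 1259, 70.0 and 64.7 FPKM in TYS1 DAmP, against 11.6 to 56.9 with a median of 17.9 FPKM in the deletion libraries. In both genes replicates 2 and 3 were just above the highest deletion library, MSB3Δ replicate 3 for DAN1 and HSP26Δ replicate 1 for TIR4. The differences were 3.60 ± 0.92 for DAN1 and 3.10 ± 0.75 for TIR4 (SE), with adjusted p-values of 0.404 and 0.349, and 1.96 and 1.69 without replicate 1. PAU24, a seripauperin gene also known as DAN3, was at 351, 24.4 and 25.7 FPKM in TYS1 DAmP, against 3.66 to 22.2 FPKM in the deletion libraries (difference 2.82, adjusted p = 0.235). TIR2 was at 63.2, 24.6 and 19.5 FPKM against 7.53 to 19.4 FPKM (difference 1.37, adjusted p = 0.301). DAN4 differed by 0.72 and by 0.02 without replicate 1.

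The other seripauperin (PAU) genes, a subtelomeric family of nearly identical members, were listed after their values had been seen. Of 16 tested, 11 were higher at the thresholds, against 0.908% of all genes, and 0 passed at an adjusted p, with a median difference of 1.72 that was 0.44 without TYS1 DAmP replicate 1. PAU8 was at 537, 1.04 and 2.81 FPKM in TYS1 DAmP, against 0.70 to 5.66 FPKM in the deletion libraries. PAU13 was at 279, 3.50 and 5.35 FPKM in TYS1 DAmP, against 0.56 to 5.53 FPKM in the deletion libraries. In these 2 genes only replicate 1 of TYS1 DAmP was above the deletion libraries. PAU18 was at 173, 41.5 and 43.1 FPKM against 15.4 to 39.4 FPKM, without overlap.

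Replicate 1 also stood apart in genes regulated by oxygen and heme. ANB1, the form of translation factor eIF5A made without oxygen, was at 743, 159 and 160 FPKM in TYS1 DAmP, against 87.3 to 214.6 with a median of 155 FPKM in the deletion libraries. OLE1, the fatty acid desaturase, was at 199, 632 and 528 FPKM in TYS1 DAmP, against 478 to 833 with a median of 569 FPKM in the deletion libraries. For both genes replicates 2 and 3 lay inside the range of the deletion libraries, and the differences without replicate 1 were 0.04 for ANB1 and −0.01 for OLE1. AUS1, a sterol importer of cells without oxygen, was at 83.9, 10.6 and 9.51 FPKM against 3.82 to 10.07 FPKM (difference 1.81, adjusted p = 0.686). HEM13, an oxygen-requiring enzyme of heme synthesis, was at 670, 401 and 325 FPKM in TYS1 DAmP and at 150 to 405 FPKM in the deletion libraries (difference 0.91, adjusted p = 0.837). Of the 21 genes of heme and hypoxia tested, HEM13 was the single one past the thresholds, higher, and the list median was −0.10. CYC1, iso-1-cytochrome c, was at 10.95, 47.9 and 38.8 FPKM in TYS1 DAmP, against 12.5 to 200.3 FPKM in the deletion libraries. What set replicate 1 apart was not tested.

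**Figure D3:**
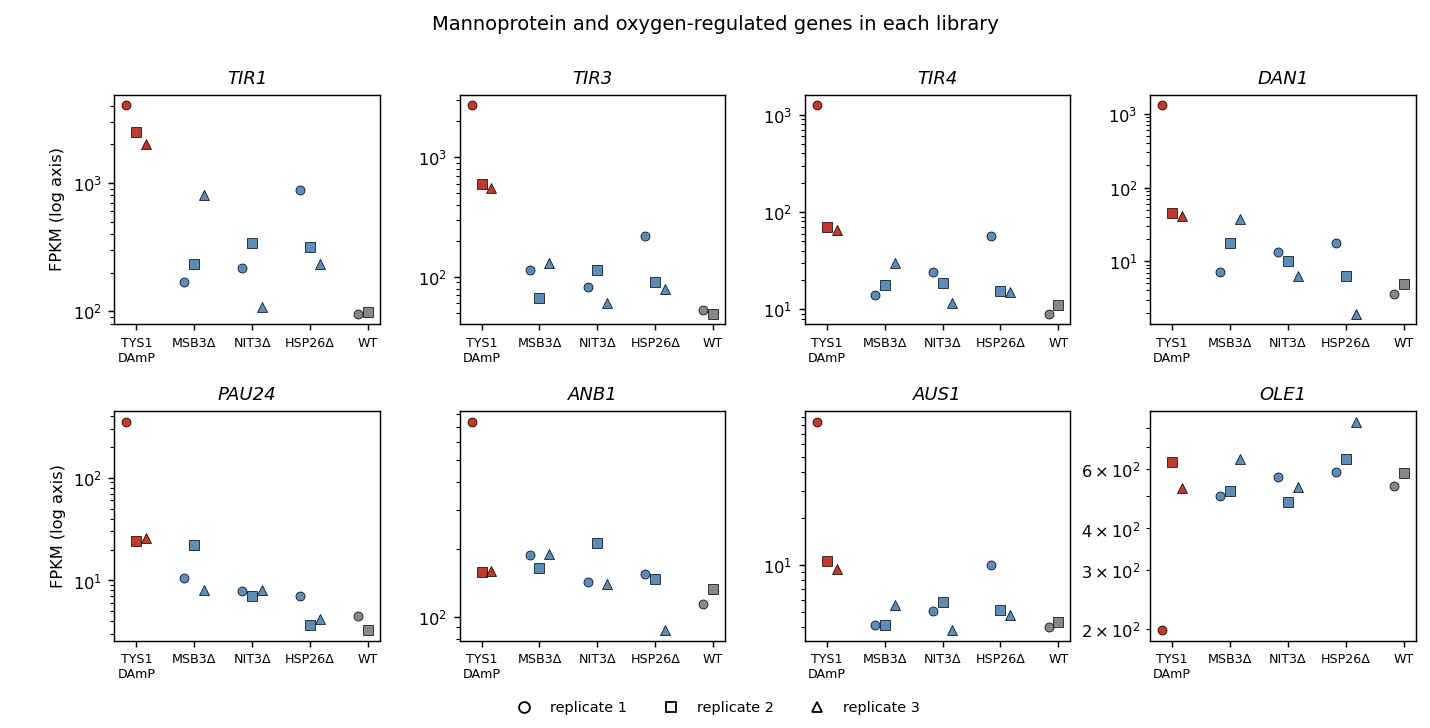
Levels of mannoprotein and oxygen-regulated genes in FPKM (log axis) in each library, with TYS1 DAmP in red, the deletion strains in blue and WT in grey. TIR1 and TIR3 are above all deletion libraries in every TYS1 DAmP library, whereas in ANB1 (743, 159 and 160 FPKM) and OLE1 (199, 632 and 528 FPKM) only TYS1 DAmP replicate 1 lies outside their range.

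A few genes of no list were also above all deletion libraries. YPR145C-A, a small uncharacterised reading frame, was at 2594, 450 and 315 FPKM in TYS1 DAmP, against 36.8 to 276 with a median of 124 FPKM in the deletion libraries (difference 2.72 ± 0.55 SE, adjusted p = 0.130). FHN1, which encodes a membrane protein of eisosomes, was at 237, 58.8 and 76.3 FPKM against 22.5 to 43.9 FPKM (difference 1.61, adjusted p = 0.139). SCM4, a mitochondrial outer membrane protein, was at 454, 341 and 319 FPKM against 106 to 243 FPKM (difference 1.27, adjusted p = 0.102). These 3 were chosen after their values were seen.

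Apart from TYS1, no gene that was lower in TYS1 DAmP passed at an adjusted p. Of the 47 genes lower at the thresholds, 7 had all TYS1 DAmP libraries below all deletion libraries, and these were TYS1, CHO2, CSS1, ITR1, EHT1, CHO1 and OPT2. On the higher side 23 of the 52 did. CHO1, CHO2 and ITR1 act in the synthesis of membrane phospholipids or the uptake of their precursor inositol.

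CHO1 encodes phosphatidylserine synthase. It was at 106, 147 and 111 FPKM in TYS1 DAmP, against 155 to 258 with a median of 198 FPKM in the deletion libraries, and 204 and 184 FPKM in WT. The groups did not overlap, though TYS1 DAmP replicate 2 came close to HSP26Δ replicate 1. The difference was −0.74 ± 0.18 (SE, unadjusted p = 0.00148, adjusted p = 0.353). CHO2, the first methyltransferase on the way to phosphatidylcholine, was at 20.5, 25.8 and 15.3 FPKM in TYS1 DAmP, against 32.1 to 57.9 with a median of 38.01 FPKM in the deletion libraries and 35.7 and 26.7 FPKM in WT. WT replicate 2 was thus near the highest TYS1 DAmP library. CHO2 differed by −1.01 ± 0.22 (SE, adjusted p = 0.164), with −0.88, −0.95 and −1.20 from MSB3Δ, NIT3Δ and HSP26Δ.

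OPI3, the second methyltransferase of this route, was at 136, 333 and 292 FPKM in TYS1 DAmP, against 286 to 1608 with a median of 517 FPKM in the deletion libraries and 274 and 266 FPKM in WT. TYS1 DAmP replicates 2 and 3 lay inside the range of the deletion libraries and above WT. The difference was −1.24 ± 0.44 (SE, adjusted p = 0.959). ITR1, the main inositol transporter, was at 56.3, 79.8 and 64.6 FPKM in TYS1 DAmP, against 81.8 to 219 with a median of 110.9 FPKM in the deletion libraries and 100.1 and 82.6 FPKM in WT. It did not overlap, by a narrow margin to NIT3Δ replicate 3, and differed by −0.87 ± 0.26 (SE, adjusted p = 0.837).

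Of the 22 phospholipid and inositol genes, a list made after the values of CHO1, CHO2 and ITR1 had been seen, 6 were lower and 0 higher at the thresholds, against 0.821% and 0.908% of all genes, and the list median was −0.31. CHO1, CHO2 and ITR1, from which the list was made, are 3 of these 6. Beside OPI3, the others were CKI1 (choline kinase) and CDS1 (CDP-diacylglycerol synthase), at −0.69 and −0.71. INO1, the inositol-making enzyme and best known target of the same regulators, was at 7.31, 3.28 and 4.95 FPKM in TYS1 DAmP and 3.44 to 11.3 FPKM in the deletion libraries, and INM1 was above all deletion libraries with a difference of 0.28.

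**Figure D4:**
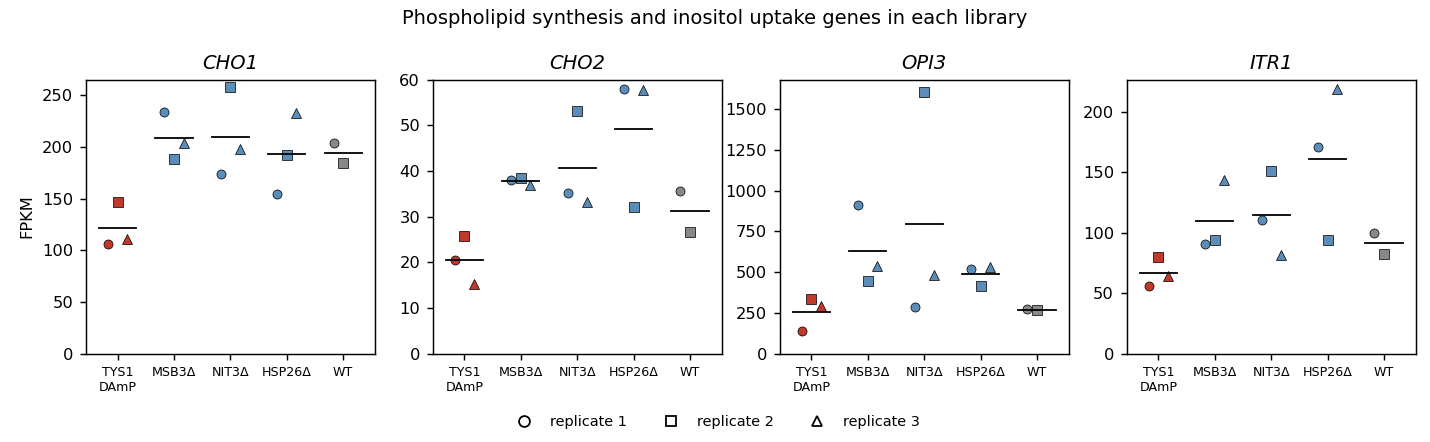
Levels of CHO1, CHO2, OPI3 and ITR1 in FPKM (vertical axes from 0) in each library, with horizontal lines at strain means; TYS1 DAmP is red, the deletion strains blue and WT grey. In CHO1, CHO2 and ITR1 the 3 TYS1 DAmP libraries lie below all 9 deletion libraries, while in OPI3 only TYS1 DAmP replicate 1 does (136 FPKM).

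CSS1 was at 21.6, 23.7 and 23.9 FPKM in TYS1 DAmP, against 33.2 to 93.6 with a median of 40.7 FPKM in the deletion libraries (difference −0.98 ± 0.25 SE, adjusted p = 0.404). EHT1, an ester-forming acyltransferase, was at 81.5, 110.4 and 82.6 FPKM against 110.6 to 341 FPKM (difference −0.77, adjusted p = 0.959). The margin for EHT1 was narrow, and WT had 122.4 and 104.9 FPKM, the second within the TYS1 DAmP range. WT was above every TYS1 DAmP library for CSS1 (32.3 and 30.9 FPKM) and for OPT2 (8.46 and 9.46 FPKM). OPT2, a transporter of oligopeptides and glutathione, was at 6.10, 6.44 and 5.15 FPKM against 6.88 to 17.2 FPKM (difference −0.57, adjusted p = 0.959). In all 3 genes NIT3Δ replicate 2, the library with the lowest ribosomal protein share, had the highest level, and without it and MSB3Δ replicate 1 the differences were −0.78, −0.52 and −0.43.

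Genes of the phosphate regulon, also listed after values were seen, had 0 members higher and 3 lower at the thresholds out of 22, against 0.908% and 0.821% of all genes, with a median of −0.23. PHM6 and PHO5, a phosphate-regulated gene and the main secreted acid phosphatase, differed by −1.17 and −0.98. The third, PHO12, was at 0.00, 109 and 107 FPKM in TYS1 DAmP, while its near-identical copy PHO11 was at 196, 30.2 and 30.5 FPKM. The sum of both was 196, 139 and 138 FPKM in TYS1 DAmP, against 40.0 to 374 with a median of 218 FPKM in the deletion libraries, so that the division of reads between the copies, and with it the call of PHO12, is uncertain. PHO8, a vacuolar phosphatase, was at 108, 112 and 100.3 FPKM in TYS1 DAmP, below the 135 to 166 FPKM of every deletion library but close to the 104 and 112 FPKM of WT.

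Genes nearest to the function of TYS1 did not pass the thresholds. None of the other 20 cytosolic aminoacyl-tRNA synthetase genes tested passed the thresholds, and their differences ran between −0.29 (GLN4, the glutamine enzyme) and 0.21 (KRS1, the lysine enzyme) with a median of −0.04. The 14 mitochondrial synthetases also had 0 members past the thresholds, as did 39 factors of translation initiation and elongation (median −0.04), 20 amino acid permeases (median −0.04) and 8 genes of aromatic amino acid breakdown (median −0.12). Of the 13 genes of aromatic amino acid synthesis, which lead to tyrosine, phenylalanine and tryptophan, none passed, at a median of 0.18. ARO4, the tyrosine-inhibited enzyme of the first step, was at 522, 528 and 505 FPKM in TYS1 DAmP, against 76.2 to 458 with a median of 389 FPKM in the deletion libraries and 453 and 475 FPKM in WT. It lay above every deletion library by a margin that was small next to their spread, and differed by 0.74 ± 0.42 (SE, adjusted p = 0.959), or by 0.37 without MSB3Δ replicate 1 and NIT3Δ replicate 2. TYR1, which makes the precursor of tyrosine, was at 61.1, 49.2 and 48.7 FPKM against 44.5 to 67.6 FPKM.

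Amino acid synthesis genes under Gcn4, the activator that acts when uncharged tRNA accumulates, had 1 member of 49 higher and 0 lower at the thresholds. The shares of all genes were 0.908% and 0.821%. The list median was 0.12, with 39 positive and 10 negative differences, against 1555 positive and 4169 negative among all 5724 genes. TGACTC was found before 37 of 48 genes of this list (77.1%). The member past the thresholds was ARG7 of arginine synthesis, at 241, 163 and 157 FPKM in TYS1 DAmP, against 78.8 to 148.7 with a median of 109.7 FPKM in the deletion libraries (difference 0.75 ± 0.20 SE, adjusted p = 0.481). HOM2, of threonine and methionine synthesis, was at 843, 889 and 828 FPKM against 396 to 692 FPKM (difference 0.54), and ILV6 and HOM3 were also above all deletion libraries, at 0.42 and 0.50. In all, 4 of the 49 genes lay above and 0 below, against 0.646% and 0.577% of all genes.

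The differences were also set against the use of tyrosine codons. The share of TAT and TAC among sense codons was counted in 5717 coding sequences of R64. In 5 bins of genes from the fewest to the most tyrosine codons, with median shares of 1.73% to 5.07%, the median difference stayed between −0.12 and −0.10. Across these genes, which are not independent replicates and share the libraries, Spearman's rho was 0.03. The genes higher at the thresholds had a median share of 4.25% and the lower ones 3.81%, against 3.28% for all. As the 52 higher genes include 11 nearly identical seripauperin genes, they are not all independent here either.

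Ribosomal protein genes, 135 in all, had 0 members past the thresholds, and their median of 0.26 was 0.03 without MSB3Δ replicate 1 and NIT3Δ replicate 2. The 85 ribosome biogenesis genes (median −0.07), 40 general stress genes (median −0.32, and −0.10 without these 2 libraries), 21 chaperone genes (median −0.18) and 33 proteasome genes (median −0.19) had no member past the thresholds either. PRE2, RPN3 and RPT2 of the proteasome were below all deletion libraries, as were 0.577% of all genes, at −0.48, −0.26 and −0.32. Of 45 respiratory chain and TCA cycle genes COX4, a subunit of cytochrome c oxidase, was lower at the thresholds (−0.75) and the list median was −0.40, or −0.19 without the 2 libraries. The pairwise medians of this list were −0.48 from MSB3Δ, −0.79 from NIT3Δ and −0.01 from HSP26Δ. Of 26 iron genes none passed (median 0.23), with FIT2, a cell wall mannoprotein that holds iron carriers, at 26694, 17993 and 19263 FPKM in TYS1 DAmP and 1604 to 25512 FPKM in the deletion libraries. Of 12 genes of the zinc regulon ZRT1, the main zinc importer, was lower (−0.84), and its difference was −1.97 from HSP26Δ but −0.34 from MSB3Δ and −0.22 from NIT3Δ.

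**Figure D5:**
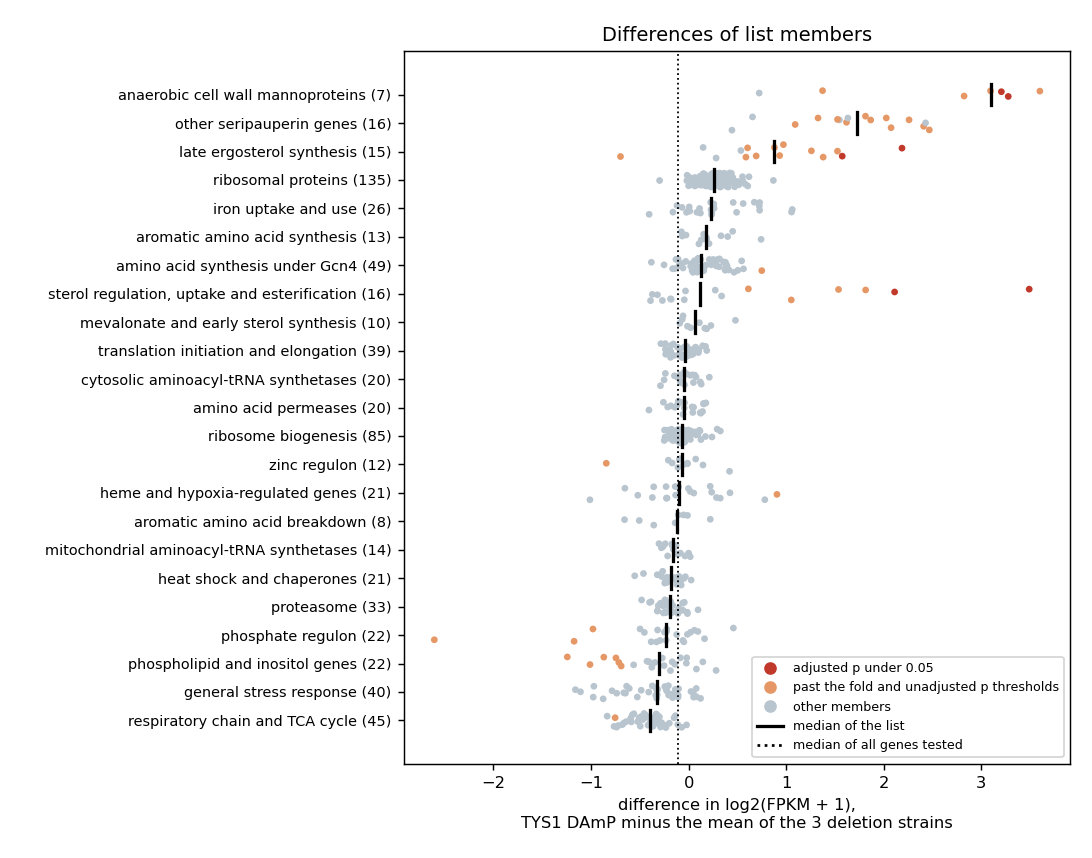
Difference in log2(FPKM + 1) between TYS1 DAmP and the mean of the 3 deletion strains for each tested member of each list (number of members in parentheses); black bars are list medians, the dotted line is the median of all genes tested (−0.11), and red and orange points passed an adjusted p under 0.05 or the thresholds. The mannoprotein list (median 3.10), the seripauperin genes (1.72) and late ergosterol synthesis (0.88) lie to the right.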

How the data were processed

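RNA was sequenced on a BGISEQ-500 from 14 yeast libraries, and the authors deposited 1 table of FPKM values per gene and library. The submitters' processing notes name HISAT2 2.1.0, Bowtie2, RSEM 1.3.1, DESeq2 1.4.5 and the R64 genome. FPKM are not counts, so no count test was run. Differences were tested on log2(FPKM + 1) with limma 3.58.1 in R 4.3.3, in a model of 4 strain means with trended, robust moderation and Benjamini-Hochberg adjustment over 5727 genes with a mean of at least 1. All adjusted p-values in the text come from this test, and the deleted genes stayed in the adjustment. The script was tested on simulated data. Depth, estimated from the values, covers counting error only. Of 5886 gene names 5877 matched R64. The arms were read from the study's primer list and placed on R64. In each direction up to 10 genes were named, by size of difference, first past an adjusted p of 0.05 and then past the thresholds, all without overlap between the groups, with up to 4 members of each list. Other named genes were chosen after their values were seen. Members and lists were chosen with earlier results of these data known. The p-values measure the spread between replicate libraries. Alternatives were another pseudocount (0.1), no minimum or one of 10 FPKM, median-ratio scaling, a 2-group fit, a fit over all 14 libraries, array weights, plain moderation, a replicate block, and leaving out libraries or strains. Python 3.11.15, pandas 2.3.3, NumPy 2.4.6, SciPy 1.17.1 and matplotlib 3.10.9 were used.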

Additional observations from a re-analysis of the deposited data

How the results depend on the processing

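The TYS1 and CYB5 calls held in all 25 alternatives, and 73 of the 77 genes tracked never changed sign. With median-ratio scaling 26 genes were lower at the thresholds, 60 lay above and 18 below all deletion libraries, TFG1 was at 0.022, and MSB3Δ and NIT3Δ had 0 and 1 genes at an adjusted p. A 2-group fit gave 3 higher genes and a fit over all 14 libraries 11, with 1 for HSP26Δ, as with plain moderation (1). Array weights, whose estimation stopped before converging, gave 36 higher and 27 lower genes, 73 lower at the thresholds, PHO11 at −0.49, and 2528, 19 and 232 genes for MSB3Δ, NIT3Δ and HSP26Δ. Without MSB3Δ replicate 1 and NIT3Δ replicate 2, 27 genes were lower at the thresholds, 62 lay above, HGH1 was at −0.10 and MSB3Δ had 0 genes. Leaving out MSB3Δ gave 28 lower at the thresholds and 71 below, with 5 genes for NIT3Δ and 1 for HSP26Δ. Leaving out NIT3Δ gave 1 higher gene at an adjusted p, 62 below, HGH1 at −0.016 and 1 gene for HSP26Δ. Leaving out HSP26Δ gave 87 lower at the thresholds, 72 above, 130 below and 1 gene for NIT3Δ.

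Without 1 library at a time, the genes at an adjusted p numbered 2 to 9 higher and 1 to 1 lower, those at the thresholds 29 to 76 higher and 29 to 83 lower, and those without overlap 37 to 56 above and 33 to 286 below. MSB3Δ had 0 to 1, NIT3Δ 0 to 1 and HSP26Δ 0 to 2 genes. HGH1 ran between −0.065 and 0.20 (−0.02 without TYS1 DAmP replicate 2), PHO11 between −0.42 and 0.90, and PAU8 between −0.10 (without TYS1 DAmP replicate 1) and 3.92.

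Replicate numbers were not taken as pairs: 9 of 18 same-numbered pairs of libraries had a correlation of deviations above 0.1 (range −0.774 to 0.441), and 6 of 12 libraries correlated best with their own number. With a replicate block 2 genes were higher at an adjusted p (CYB5 and TIR3) and 1 lower, with 0 genes for MSB3Δ and 1 for HSP26Δ.

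With 3 libraries a strain, a difference that misses the threshold does not show that levels are alike. Replicate 1 of TYS1 DAmP stood apart in mannoprotein and oxygen-regulated genes, and the size of their differences depends in part on this 1 library. In TIR1 and TIR3 the other TYS1 DAmP libraries were also well above all deletion libraries. Levels of near-identical genes depend on how reads were divided. FPKM are relative to the library, so a change in a few abundant genes moves all others.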
